A study of Drosophila melanogaster with 3 samples.

Results

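The Rab genes encode small GTPases that label the membranes of the cell. They were taken here as the protein-coding genes of the Ensembl annotation of the Drosophila melanogaster genome (dm6 build) whose symbol is Rab or RabX, digits, and at most a short letter suffix. This gave 33 genes of the 13945 protein-coding genes on the main chromosome arms. A further 3 genes with symbols that begin in the same way, Rab3-GEF, Rab3-GAP and Rab3GAP1, encode regulators of Rab proteins and were kept apart, so that a literal reading of the symbols gives 36.

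The data are a chromatin immunoprecipitation and sequencing (ChIP-seq) map of the CG3919 protein in whole prepupae, with males and females pooled and their exact age unknown. All animals came from a single transgenic line, CG3919-GFP, that stably expresses CG3919 with eGFP at the C-terminal end, and an antibody against GFP recovered the tagged protein. There was 1 group of 3 biological replicates, compared with 1 shared control, and no second genotype, stage or treatment. The map therefore shows the tagged protein in a mixture of all tissues, and a site used in few cells and a site used weakly in many cells cannot be told apart.

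A Rab protein is switched on when a guanine nucleotide exchange factor (GEF) loads it with GTP and off when a GTPase-activating protein (GAP) makes it hydrolyse that GTP. In the GTP-bound form it recruits effectors and tethers that bring a vesicle to its target, where SNARE proteins fuse the membranes. Different Rab proteins mark the Golgi, early, recycling and late endosomes, lysosomes and secretory vesicles, and at the prepupal stage larval tissues break down while the salivary glands secrete and imaginal tissues change shape.

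The authors' 9569 reproducible peaks were ranked by the deposited signal, with rank 1 as the strongest, and were checked to be the 9569 strongest of 30000 pooled candidate regions. Each replicate also has its own list of 30000 candidates, which hold peaks and background together, and its 9569 strongest were used for values per replicate. The summit is the single position of a region that its list marks as the peak. A transcription start site (TSS) is the first base of an annotated transcript, and a gene was counted when 500 bp or less separated a summit from 1 of its TSSs. Read depth is unknown from peak lists, so the intervals given are Wilson 95% intervals that cover counting error only.

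A reproducible summit lay at a TSS of 10 of the 33 Rab genes, which is 30.3% (17.4% to 47.3%), beside 23.1% of all protein-coding genes. These were Rab1, Rab5, Rab7, Rab11, Rab21, Rab26, Rab30, Rab32, Rab39 and Rab40. Summits within the gene span were found in 7 Rab genes (21.2%), against 16.6% of all genes, and a summit at a TSS or within the span in 13 (39.4%), against 27.9%. The interval of the Rab share holds the share of all genes. It treats each gene as independent, which the near copies among them are not, and a difference was not tested. In the replicate lists the TSS count was 12 of 33 in replicate 1, 8 in replicate 2 and 10 in replicate 3, where all protein-coding genes gave 21.8%, 25.3% and 24.6%. The Rab share was thus 30.3% ± 6.06 (SD, n = 3 replicates) and that of all genes 23.9% ± 1.82. In replicate 2 the Rab share of 24.2% lay below that of all genes, and in the other replicates above it. When a peak also had to be among the 9569 strongest candidates of the other replicates, 6 Rab genes were left without replicate 1 (18.2%, beside 19.6% of all genes), 7 without replicate 2 (21.2%, beside 18.4%) and 5 without replicate 3 (15.2%, beside 17.8%). The Rab share thus lay below that of all genes in the first and last case and above it without replicate 2. The peaks themselves were still those called from all 3 replicates, so a replicate left out in this way still shaped them.

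Most Rab TSS peaks were of middling strength. The median rank of the strongest TSS peak was 4971 over the 10 Rab genes and 3705 over all 3217 genes with such a peak. Only Rab5, Rab39, Rab1 and Rab40, 4 of the 10, reached the 4784 strongest peaks, beside 2007 of the 3217 genes. As a share of all 33 Rab genes this was 12.1%, beside 14.4% of all protein-coding genes. With weaker pooled candidates included, 18 Rab genes (54.5%) had a region at a TSS, beside 35.4% of all protein-coding genes.

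**Figure D1:**
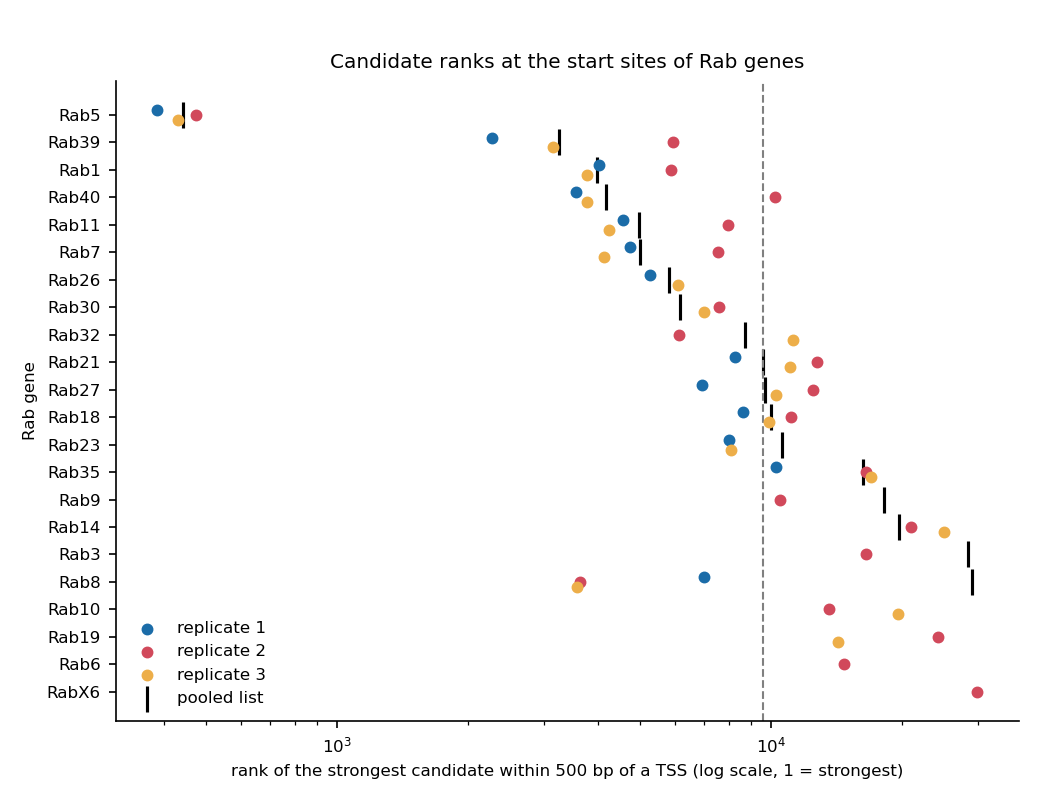
Rank of the strongest candidate with its summit within 500 bp of a TSS (log scale, rank 1 strongest) for the Rab genes with a candidate in any list, in the pooled list (black ticks) and in replicates 1, 2 and 3 (points), with the dashed line at 9569, the size of the reproducible set; a missing marker means no such candidate in that list. Rab5 stands at rank 443 in the pooled list, far from the other Rab genes, and its 3 replicate ranks lie between 384 and 474.

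The DNA at the summits is shown here for the Rab genes whose peaks lie close to a TSS and hold an ATCGAT, with those of Rab1 and Rab5, which do not, for contrast. The TSS summits of Rab26, Rab32 and Rab39 also lack it within 100 bp, and their windows are not printed. Because the windows were chosen by this word, they do not show how common it is. The letters come from the RefSeq genome on the dm6 assembly, 5′ to 3′ on the strand of the Rab gene, from up to 50 bp either side of the summit with exon bases left out. Capitals mark every ATCGAT, and the whole of TATCGATA where it is present. TATCGATA is the DNA replication-related element (DRE), the site known for the factor DREF, and it contains ATCGAT. The windows are chr3R:23992950-23993007 (plus strand) for Rab7, chr2L:7032634-7032720 (minus) for Rab30, chrX:12463115-12463215 (minus) for Rab40, chrX:23013434-23013494 (minus) for Rab21, chr3R:21111287-21111387 (plus) for Rab11, chr3R:21269061-21269144 (minus) for Rab1 and chr2L:2363709-2363809 (minus) for Rab5. The window of Rab8, chr3L:19871079-19871137 (minus), is from a region of replicate 3 that had no counterpart in the pooled list.
Rab7: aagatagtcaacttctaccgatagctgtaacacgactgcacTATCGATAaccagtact
Rab30: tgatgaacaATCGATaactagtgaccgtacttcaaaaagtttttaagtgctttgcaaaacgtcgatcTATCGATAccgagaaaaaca
Rab40: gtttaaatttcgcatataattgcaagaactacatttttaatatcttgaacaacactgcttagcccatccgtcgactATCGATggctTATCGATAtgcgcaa
Rab21: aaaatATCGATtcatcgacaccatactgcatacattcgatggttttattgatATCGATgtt
Rab11: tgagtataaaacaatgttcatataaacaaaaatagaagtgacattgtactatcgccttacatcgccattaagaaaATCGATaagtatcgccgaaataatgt
Rab8: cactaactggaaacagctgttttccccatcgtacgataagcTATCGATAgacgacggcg
Rab1: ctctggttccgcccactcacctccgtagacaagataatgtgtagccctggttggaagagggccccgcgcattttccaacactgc
Rab5: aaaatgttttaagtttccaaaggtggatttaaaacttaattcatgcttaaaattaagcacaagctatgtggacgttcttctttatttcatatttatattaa

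The Rab genes held 17 reproducible summits in all, 11 of them at a TSS. Within 100 bp of these summits, on both strands, DRE was present at 3, those of Rab7, Rab30 and Rab40, all at a TSS. Over all genes, 4.50% of the 3403 summits at a TSS and 1.85% of the 9569 reproducible summits held a DRE. The shorter ATCGAT, which was added to the search after the sequences had been seen, lay within 100 bp of 5 of the 11 Rab TSS summits, beside 11.1% of all TSS summits. Those 5 belong to Rab7, Rab11, Rab21, Rab30 and Rab40, and a sixth lies at the intron summit of Rab14. Other words were at or below the share of all summits or rested on 1 or 2 summits. GAGAG, the word of the GAGA factor, was found at 2 of 17 Rab summits and at 26.4% of all summits, and TATAAA at 5 of 17 and 32.1%. CACGTG, an E-box, was at the Rab5 summit of rank 443 alone and at 1.90% of all. GGTCACAC, a core of the element called motif 1, was at none of the 17 and at 1.71% of all. GC content in these windows had a median of 36.8% for the Rab summits and 36.3% for all reproducible summits.

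DRE was also counted in the promoters of all Rab genes. In the window from 250 bp before to 50 bp after the 5′ end of the gene, 11 of 33 Rab genes (33.3%) held a DRE, beside 9.37% of all 13945 genes. They were Rab2, Rab6, Rab7, Rab8, Rab14, Rab19, Rab27, Rab30, Rab35, Rab40 and RabX6. Of these 11 genes, 3 had a reproducible TSS summit, and of the 22 Rab genes without a DRE, 7 had one. Over all genes the same shares were 27.3% with a DRE and 22.6% without. The shorter ATCGAT lay in the promoter window of 17 of 33 Rab genes, beside 23.3% of all genes. Of the genes with a reproducible TSS summit, Rab7, Rab11, Rab21, Rab30, Rab32, Rab39 and Rab40 held it, and Rab1, Rab5 and Rab26 did not. The rest of the 17 had no such summit: Rab2, Rab3, Rab6, Rab8, Rab10, Rab14, Rab19, Rab27, Rab35 and RabX6. The word was thus not limited to genes with a peak, and its split by peak over all genes was not made. A match of letters is a description of the sequence and says nothing of which factor sits there.

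Of the 6 Rab genes of the endoplasmic reticulum (ER) and Golgi, 2 carried a TSS summit (33.3%, 9.68% to 70.0%), beside 23.1% of all genes. Each replicate list also gave 2 of 6, but Rab1 and Rab18 in replicate 1 and Rab1 and Rab30 in replicates 2 and 3. When replicate 2 or replicate 3 was left out as above, the count was 1 of 6 (16.7%, beside 18.4% and 17.8% of all genes). Rab1 (FBgn0285937), which drives transport from the ER to the Golgi, had its summit 34 bp upstream of its only TSS, in a peak on 3R from 21268876 to 21269311. This peak ranked 3966 in the pooled list and 4016, 5880 and 3778 in replicates 1, 2 and 3, a mean of 4558 ± 1151 (SD, n = 3). No other gene has a TSS within reach of it, so it is assigned to Rab1 alone. Rab30 (FBgn0031882), a Golgi Rab, had its summit 78 bp upstream of its TSS and 37 bp upstream of the TSS of Caper, which runs the other way and encodes an RNA-binding protein. That peak, on 2L from 7032466 to 7032901, ranked 6185 in the pool, 7573 in replicate 2 and 6995 in replicate 3. In replicate 1 no candidate overlapped it, and the nearest candidate summit was 5842 bp away.

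The other ER and Golgi genes had no reproducible summit. Rab18 (FBgn0015794), which works at the ER and lipid droplets, had a candidate 28 bp upstream of its TSS at pooled rank 10016, just outside the reproducible set, with ranks of 8630, 11105 and 9883 in the replicates. Rab19 had weak candidates in replicate 2 (rank 24283) and replicate 3 (rank 14272) only. Rab6, which serves traffic at the Golgi, had 1 candidate, of rank 14726, in replicate 2. Rab2, which acts at the Golgi and in lysosome formation, had no candidate at its TSS in any list, and the nearest reproducible summit was 15162 bp away. Rab2, Rab6 and Rab19 all hold a DRE in the promoter window, so the word was present there without a reproducible peak.

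Of the 6 genes of the early endosome and recycling, 3 carried a TSS summit (50%, 18.8% to 81.2%, beside 23.1% of all genes), with 3, 2 and 2 in replicates 1, 2 and 3. When any 1 replicate was left out as above, the count was 2 of 6 (33.3%, beside 17.8% to 19.6% of all genes). Rab5 (FBgn0014010), the organiser of early endosome fusion, had by far the strongest TSS peak of any Rab gene. Its peak on 2L from 2363577 to 2363942 ranked 443 in the pool and 384, 474 and 430 in the replicates, a mean of 429 ± 45.0 (SD, n = 3). The summit lies inside the gene, 255 bp upstream of an internal TSS, and Rab5 has 6 annotated TSSs. A second and weaker Rab5 peak, from 2365251 to 2365686, sat 196 bp upstream of the first TSS and 124 bp inside the divergent gene Axud1. It ranked 8989 in the pool and 7306, 9900 and 8871 in the replicates. The stronger of both Rab5 peaks was therefore at the internal start and the weaker at the divergent promoter.

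Rab11 (FBgn0015790), the Rab of recycling endosomes, had 2 peaks of nearly equal rank. The peak at its TSS, on 3R from 21111119 to 21111554 with the summit 71 bp upstream, ranked 4956 in the pool and 4549, 7974 and 4235 in the replicates. The peak in its intron, 1203 bp downstream of the TSS at 21112393 to 21112828, ranked 4870 in the pool and 5502, 7224 and 4003 in the replicates. Both were among the 9569 strongest regions of every replicate. Rab21 (FBgn0039966), an early endosome Rab linked to integrin traffic, held the weakest Rab peak that still counted. It ranked 9566 of 9569, lay 75 bp upstream of Rab21 and 11 bp upstream of the divergent gene Coa7, and ranked 8269, 12785 and 11069 in the replicates, so only replicate 1 had it among its 9569 strongest.

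Rab14 (FBgn0015791), which acts between endosomes and Golgi, had no TSS summit but the second strongest peak inside any Rab gene. That peak, on 2L from 14355614 to 14355857, lay in an intron 588 bp downstream of a TSS and thus outside the window, and ranked 1500 in the pool and 1479, 1906 and 1438 in the replicates. The 3 values are close, with a mean of 1608 ± 259 (SD, n = 3). At a TSS Rab14 had only a weak candidate, of rank 19733 in the pool, 21056 in replicate 2 and 25102 in replicate 3. Rab35, a Rab of recycling and of the actin cytoskeleton, had a candidate 65 bp downstream of its TSS at pooled rank 16290, with replicate ranks of 10249, 16520 and 17031. Rab4, the Rab of rapid recycling, had no candidate at its TSS in any list.

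Of the 4 genes of the late endosome and lysosome, 3 carried a TSS summit (75.0%, 30.1% to 95.4%, beside 23.1% of all genes), with 2, 3 and 2 in the replicates. With so few genes this interval is wide. Rab7 (FBgn0015795), which brings late endosomes and autophagosomes to the lysosome, had a summit 8 bp upstream of its TSS and 84 bp upstream of the divergent gene Epp. The peak on 3R from 23992782 to 23993217 ranked 4986 in the pool and 4741, 7570 and 4114 in the replicates, a mean of 5475 ± 1841 (SD, n = 3). Rab39 (FBgn0029959), a Rab of the lysosomal pathway, ranked 3254 in the pool and 2273, 5949 and 3145 in the replicates, in a peak on X from 7734486 to 7734692. Its summit was 328 bp upstream of Rab39 but 56 bp inside Pdp, the divergent gene of pyruvate dehydrogenase phosphatase. With each peak given only to the gene of the nearest TSS, Rab39 lost its peak, as did Rab21 and Rab30.

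Rab32 (FBgn0002567), known in flies as lightoid and needed for the pigment granules of the eye, held 3 peaks within its span on 2R. The peak at a TSS, from 9186079 to 9186514 with its summit 45 bp downstream, ranked 8707 in the pool, 6141 in replicate 2 and 11212 in replicate 3, with no candidate in replicate 1. A stronger peak at 9183610 to 9183724 ranked 3970 in the pool and 8605, 2526 and 3748 in the replicates, and lay 276 bp inside the noncoding gene lncRNA:CR44284. An intron peak 1706 bp from a TSS ranked 7344 in the pool and 10464, 7106 and 6485 in the replicates. Each of the Rab32 peaks was weakest or missing in replicate 1. Rab9, which returns receptors from late endosomes to the Golgi, had only a candidate 133 bp downstream of its TSS at pooled rank 18255, seen in replicate 2 at rank 10516.

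Among the 5 exocytosis genes, 1 had a reproducible TSS summit (20%, 3.62% to 62.4%, beside 23.1% of all genes), while the replicate lists gave 3, 1 and 2. Rab26 (FBgn0086913), a Rab of secretory vesicles and at 16.3 kb the longest Rab gene, had a summit 389 bp upstream of an internal TSS in a peak on 3L from 21321774 to 21322209. It ranked 5826 in the pool, 5275 in replicate 1 and 6093 in replicate 3, and the nearest candidate summit of replicate 2 was 17427 bp away. Rab27, a Rab of secretory granules, missed the reproducible set narrowly with pooled rank 9665, 79 bp upstream of its TSS, and ranks of 6936, 12527 and 10259 in the replicates. Rab10, which directs basement membrane secretion in the fly follicle, had weak candidates in replicates 2 (13580) and 3 (19665) only. Rab3, the Rab of synaptic vesicles, had a candidate at pooled rank 28482, seen in replicate 2 at rank 16523.

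Rab8 (FBgn0262518), which carries cargo from the Golgi to the plasma membrane, was the exception among the uncounted genes. Replicate 2 had a region at rank 3627 on 3L from 19870876 to 19871299 with the summit 10 bp upstream of Rab8, and replicate 3 had one at rank 3569 from 19870869 to 19871304 with the summit 9 bp upstream. Replicate 1 had no region there, and its strongest Rab8 candidate, of rank 7014, lay 264 bp upstream of an internal TSS. Replicate 3 also had a second region, of rank 7817, with the summit 257 bp upstream of the internal TSS. The pooled list, like replicate 1, held no region at the first TSS of Rab8, and its only Rab8 candidate was of rank 29038, 451 bp upstream of the internal TSS. The promoter is shared with Usp32, a gene of a ubiquitin protease that starts 61 bp away on the other strand. Across all genes, 2412 had a strong candidate at a TSS in all 3 replicates, and 51 of them (2.11%) had no reproducible TSS summit. Rab8 was the only Rab gene among the 51, with its strongest candidates at different TSSs in replicates 1 and 2. Of 7912 strong regions that overlapped between replicates 2 and 3, 158 (2.00%) had no pooled candidate on them. Why these positions are missing from the pooled list was not tested.

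Of the genes of cilium, polarity and other roles, Rab40 carried a TSS summit and Rab23 an intron peak. Rab40 (FBgn0030391), whose mammalian relatives join ubiquitin ligases through a SOCS box, had its summit 53 bp upstream, in a peak on X from 12462947 to 12463382. The peak ranked 4173 in the pool and 3549, 10243 and 3759 in the replicates, so replicate 2 stood far from the other replicates, and the mean of 5850 carries an SD of 3806 (n = 3). Rab23 (FBgn0037364), which acts in planar cell polarity in the fly wing, held an intron peak 2256 bp from its TSS, on 3R from 5683046 to 5683250. It ranked 2409 in the pool and 2895, 2147 and 2688 in the replicates, a mean of 2577 ± 386 (SD, n = 3). In the window of the Rab23 TSS there was a candidate of pooled rank 10609, 364 bp upstream. Its ranks were 8022 and 8097 in replicates 1 and 3, with none in replicate 2. The divergent gene plx starts 421 bp upstream of Rab23, so this candidate lies nearer to plx. The same replicate ranks stand at the TSS of plx, which is among the Rab regulators counted below.

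None of the 10 little studied genes had a TSS summit in the reproducible list, beside 23.1% of all genes, or among the strongest regions of any replicate. The interval of 0 of 10 reaches 27.8%, but it counts the near copies described below as independent genes. RabX1 alone had a peak within its span, in an intron 955 bp from its TSS, at pooled rank 9451 and ranks of 8052, 13460 and 9123 in the replicates. RabX6 had 1 candidate at its TSS, of rank 29905, in replicate 2, and RabX2, RabX4 and RabX5 had none. The remaining genes, Rab9D, Rab9Db, Rab9E, Rab9Fa and Rab9Fb, lie with RabX2 on X between 10417429 and 10952486, and had no candidate at a TSS in any list. That interval of 535 kb was not empty, with 46 reproducible peaks and 139 pooled candidates. Rab9D, Rab9Db, Rab9E and Rab9Fa are near copies, with 96% to 99.0% identical bases between any pair, while Rab9Fb shares 78.4% to 81.0% and RabX2 74.1% to 76.5% with them. How reads were placed on such copies is not stated by any source used here, so the lack of regions at these genes is uncertain. Without these 6 genes, none of which has a summit, so that the share could only rise, the TSS count was 10 of 27 Rab genes (37%, beside 23.1% of all genes).

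**Figure D2:**
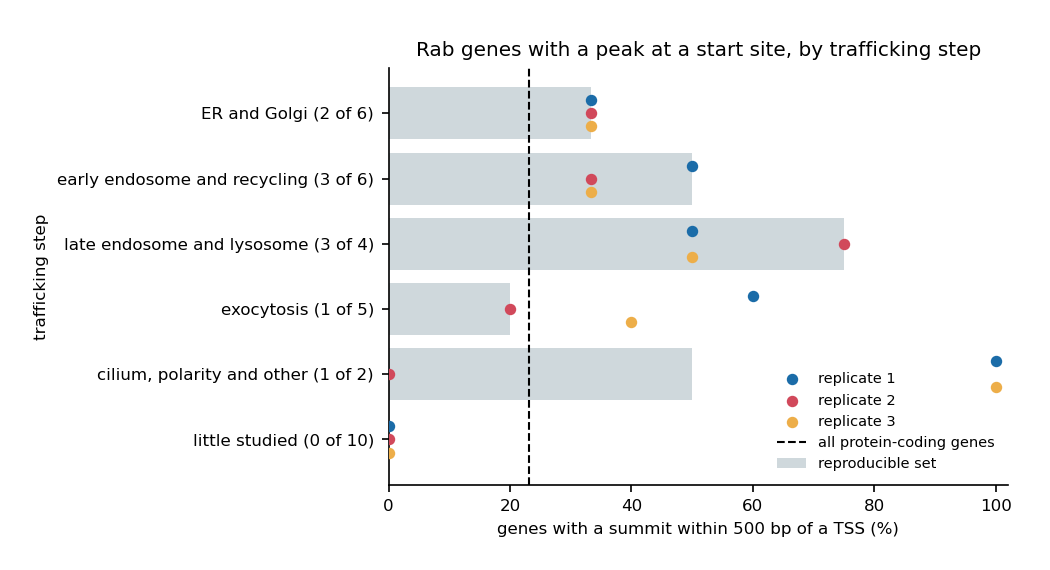
Percent of Rab genes with a summit within 500 bp of a TSS at each trafficking step, for the reproducible set (bars) and the 9569 strongest candidates of replicates 1, 2 and 3 (points), with the share of all protein-coding genes (23.1%) as the dashed line. Late endosome and lysosome genes reach 75.0% of only 4 genes, little studied genes 0 of 10, and the replicate points spread widest for the 5 exocytosis genes and the 2 genes of cilium, polarity and other roles.

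The counting rule itself keeps every TSS summit within 500 bp of a TSS. For each of the 10 genes the summit of the strongest TSS peak lay between 389 bp upstream and 45 bp downstream, with a median of 73 bp upstream, and 9 of 10 were upstream. Over all 3217 genes with a TSS peak the median was 110 bp upstream and 80.2% were upstream. Within 100 bp of the TSS were 7 of the 10 Rab summits (70.0%), beside 40.4% for all genes.

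**Figure D3:**
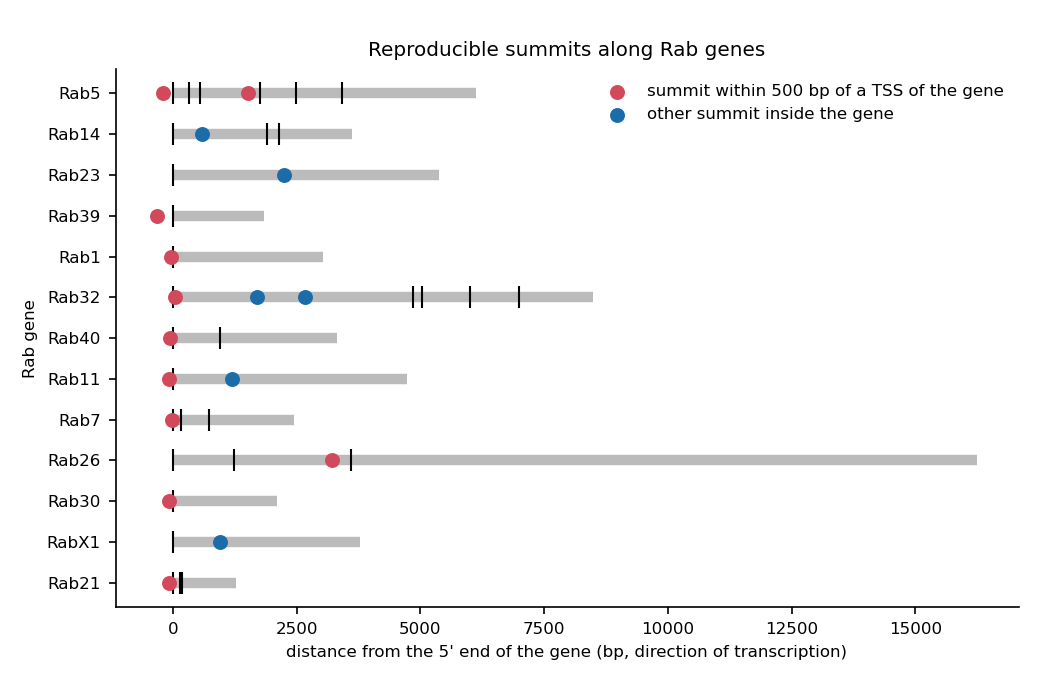
Reproducible summits around the 13 Rab genes that have one, plotted by distance in bp from the 5′ end of the gene in the direction of transcription; grey bars are the genes and black ticks their annotated TSSs. The summits within 500 bp of a TSS (red) lie upstream of it except that of Rab32, while those of Rab14, Rab23 and RabX1, the second of Rab11 and the other summits of Rab32 (blue) lie inside the gene, away from its TSSs.

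Many Rab genes share their promoter with a neighbour. A head-to-head TSS of another gene lay within 500 bp upstream of 16 of 33 Rab genes (48.5%), beside 29.6% of all genes. Of those 16, 7 had a TSS summit, and of the other 17, 3 did, while over all genes the shares were 34.6% with such a neighbour and 18.2% without. The gaps of the Rab pairs ranged from 60 bp between Rab14 and l(2)34Fd to 436 bp between RabX6 and CG32483. At 6 of the 10 Rab genes the TSS summit also lay within 500 bp of a TSS of another gene, beside 49.3% of all genes with a TSS summit. For Rab5, Rab7, Rab21, Rab30, Rab39 and Rab40 the data do not say which of the paired genes the protein is placed at, although the stronger Rab5 peak is away from the pair. Rab1, Rab11, Rab26 and Rab32 had summits that no other TSS shared.

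Longer Rab genes and those with several TSSs carried a summit more often, as in the genome at large, but the difference between Rab strata was not tested. Of 24 Rab genes with 1 TSS, 4 had a TSS summit (16.7%), beside 16.5% of all genes with 1 TSS, and of 9 Rab genes with 2 or more TSSs, 6 did (66.7%), beside 41.2%. Of 15 Rab genes under 2 kb, 2 carried one (13.3%, against 13.4% of all such genes), and of 18 Rab genes of 2 kb or more, 8 did (44.4%, against 31.5%). The median Rab gene was 2.44 kb long, and the median of all genes was 2.17 kb. Together the Rab genes held 9 summits in 106 kb of gene span, or 8.50 per 100 kb, beside 6.63 per 100 kb for all genes. On X, where 13 of the Rab genes lie, 3 had a TSS summit (23.1%), beside 24.1% of all X-linked genes.

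Of the 10 Rab genes with a reproducible TSS peak, 7 had it weakest in replicate 2. In all 7 Rab genes with a reproducible TSS peak and a candidate in every replicate, the rank was weakest in replicate 2, while this held for 44.6% of the 2906 such genes overall. The fall was small for Rab5 and large for Rab40. The peaks of Rab30 and Rab32, which had no candidate in replicate 1, stand outside this count, as does that of Rab26, which replicate 2 lacked. The TSS peak of Rab32 went the other way, with rank 6141 in replicate 2 and 11212 in replicate 3. The intron peak of Rab23 was strongest in replicate 2. What set replicate 2 apart at these genes was not tested.

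**Figure D4:**
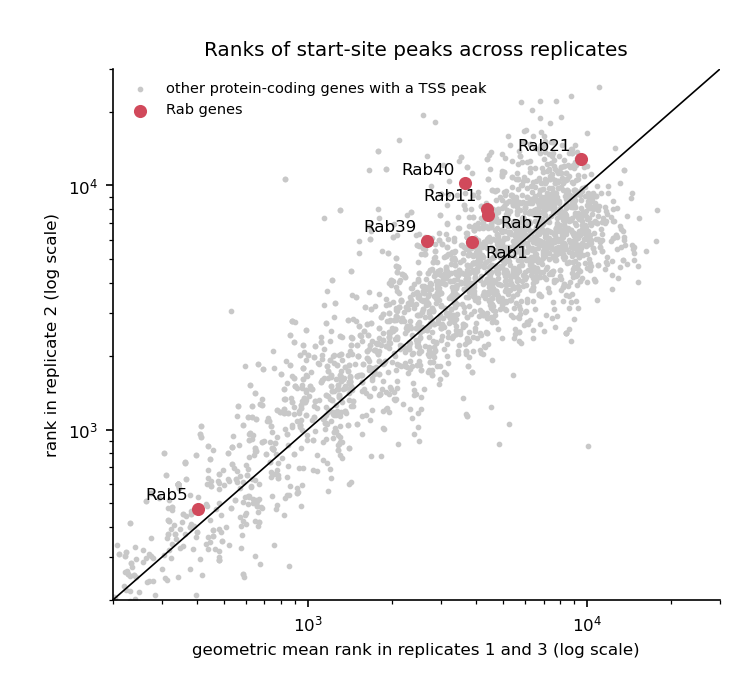
Rank in replicate 2 against the geometric mean of the ranks in replicates 1 and 3 (both log scales) for genes with a reproducible TSS peak and a candidate in all 3 replicates; points above the diagonal are weaker in replicate 2, and the strongest peaks of other genes lie outside the axes. All 7 Rab genes lie above the diagonal, Rab40 farthest and Rab5 nearest to it.

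The genes that act with Rab proteins were counted from lists drawn up by role. Of 34 Rab regulators, 14 had a reproducible TSS summit (41.2%, beside 23.1% of all protein-coding genes), and the replicate lists gave 47.1%, 50% and 47.1%, beside 21.8%, 25.3% and 24.6% of all genes. The strongest was at Mon1, part of the exchange factor for Rab7, at rank 514 with 439, 931 and 393 in the replicates, in a promoter shared with mRpS2. It was followed by spri, an exchange factor for Rab5, at rank 647, by TBC1d7 at rank 981, and by Rab3GAP1 at rank 1653. The summit of TBC1d7 is shared with Myo95E and that of Rab3GAP1 with CG14352. Of the regulators that share the Rab symbols, Rab3GAP1 alone had a TSS summit, and counting all 3 with the Rab genes gave 11 of 36 (30.6%). Among 54 tethers and effectors, 15 had a TSS summit (27.8%, near the 23.1% of all genes), led by fws, a subunit of the COG tether of the Golgi, at rank 132, Vps33B, a protein of endosomal tethering, at 231, Rbsn-5, an effector of Rab5, at 499, and didum, the myosin V that binds Rab11, at 1150. Each of these summits lies within reach of another gene as well, Lamtor3 for fws, Fur1 for Vps33B, PAPLA1 for Rbsn-5 and dpa for didum. Rbsn-5 ranked 368, 585 and 550 in the replicates, where the strongest peak of Rab5 ranked 384, 474 and 430.

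Of 37 genes of the SNARE fusion machinery, 8 had a TSS summit (21.6%, beside 23.1% of all genes), with Vti1b at rank 113, Syx4 at 850, Snap29 at 1803 and gammaSnap1 at 2107. Of 35 genes of other small GTPases, 15 did (42.9%, beside 23.1%), with Mtl, a Rac-like GTPase, at rank 39, and Arl1, an Arf-like GTPase of the Golgi, at 201. Arl5 followed at 1892 and RhoBTB at 2343. Apart from Syx4, these SNARE and GTPase genes share the summit with another gene, among them Vha100-2 for Vti1b, CG5611 for Mtl and brm for Arl1. The peaks at Mtl ranked 31, 51 and 38 in the replicates, stronger than any Rab peak. The SNARE share was higher in the replicate lists, at 32.4%, 35.1% and 32.4%, beside 21.8%, 25.3% and 24.6% of all genes. The lists differ in gene length and in shared promoters, and no test between them was made.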

How the data were processed

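The 3 samples are labelled biological replicates of 1 group. Per the deposited provenance texts, the authors made a candidate list from the alignments of each replicate and 1 control, and another from the pooled replicates. They kept as reproducible those that passed an irreproducible discovery rate threshold. Aligner, caller, versions and the threshold value were not given in the sources used here. The deposited lists give each region's position, the authors' signal, on a scale not stated, and the summit position. Signal served for ranks inside 1 list and nothing else. Lists on the dm3 build were not used here.

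Annotation was Ensembl release 115 (BDGP6.54) on dm6, without transposable elements, on arms 2L, 2R, 3L, 3R, 4 and X, and sequence was the RefSeq genome of the same assembly. Promoter windows were cut from that genome. Every Rab gene is named, with up to 4 members of each other list by strongest TSS peak. The members, lists and trafficking steps were chosen with earlier results of these data known. Of the list names, 31 regulators matched directly, 3 by an older name and 8 not at all; the tethers gave 50, 4 and 1, the SNARE list 35, 2 and 0, and the other GTPases 35, 0 and 0. Names repeated within a list were counted once, and car stands in both the tether and the SNARE list. With 1 group no test was made; counts stand beside those of all genes. The assignment of summits to genes was checked on planted summits. Replicate ranks are those of candidates overlapping a peak, or, for genes without a peak, of the strongest candidate in the TSS window. Python 3.11.15, numpy 2.4.6, pandas 2.3.3, scipy 1.17.1, Biopython 1.88 and matplotlib 3.10.9 were used.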

Additional observations from a re-analysis of the deposited data

How the results depend on the processing

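The TSS count was 10 of 33. It was 8 (24.2%, beside 18.5% of all genes) with a window of 250 bp, without Rab26 and Rab39. With 1000 bp it was 13 (39.4%, beside 26.9%), with Rab14, Rab18 and RabX1 added. With 250 bp no exocytosis gene was left (0 of 5), and late endosome and lysosome genes fell to 2 of 4. With 1000 bp 1 of 10 little studied genes entered. Among the 4784 strongest peaks, 4 Rab genes had a TSS summit, 4 a summit in the span and 7 either; by step the counts were 1 for ER and Golgi, 1 for early endosome, 1 for late endosome and 0 for exocytosis. In these strongest peaks the Rab TSS share of 12.1% lay below the 14.4% of all genes. The Rab share by span (12.1%, beside 11% of all genes) and by either (21.2%, beside 19.1%) lay slightly above that of all genes. Counting any overlap of the region gave 12 genes by span (36.4%, beside 24.4% of all genes). Giving each peak only to the nearest TSS left 7 genes (21.2%, beside 18.8% of all genes), without Rab21, Rab30 and Rab39. By step it left 1 of 6 for ER and Golgi, 2 of 6 for early endosome and 2 of 4 for late endosome.

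Requiring each peak among the strongest candidates of both other replicates, which can only lower counts, gave 5 to 7 Rab genes when 1 replicate was left out. The replicate left out still shaped the reproducible list from which these peaks were taken. By span it gave 5 to 7 (15.2% to 21.2%, beside 13.9% to 14.7% of all genes). By either it gave 8 to 11 (24.2% to 33.3%, beside 22.7% to 24.3%). By step the ranges were 1 to 2 of 6 for ER and Golgi and 0 to 1 of 5 for exocytosis. For cilium, polarity and other the range was 0 to 1 of 2. Early endosome and recycling had 2 of 6 and late endosome and lysosome 2 of 4 each time, down from 3 each. The TSS share was 18.2% without replicate 1, 21.2% without replicate 2 and 15.2% without replicate 3, beside 19.6%, 18.4% and 17.8% of all genes. Rab1, Rab5, Rab7, Rab11 and Rab39 were kept each time. The median rank of 4971 was 7570 in the list of replicate 2. The setting without the 6 little studied X-linked genes, of which Rab9Fb and RabX2 are more diverged, was added after seeing the data. No paired analysis was possible because there is 1 group. Precision is limited by the small number of genes at each step.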
